A study of Homo sapiens with 33 samples.

Results

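The small nucleolar RNA (snoRNA) host genes are the genes whose introns carry snoRNAs, and 29 of them were described here. They were chosen by symbol, as every SNHG gene with a plain number together with GAS5, ZFAS1, EPB41L4A-AS1, RABGGTB, NCL, EIF4A1 and EIF4A2, which matched 35 of the 59428 entries of the count table. Of these, 29 held at least 10 counts in at least 50% of the libraries of either experiment, 25 noncoding hosts and 4 coding hosts. The classes follow the symbols, and SNHG32, kept with the noncoding hosts, is the protein-coding gene C6orf48 in GENCODE 29. The other 6 (SNHG14, SNHG18, SNHG22, SNHG25, SNHG27 and SNHG28) fell below that minimum and were not followed. In all, 33 libraries of messenger RNA 3′ ends (QuantSeq 3′ FWD) were used, each made from 500 ng of total RNA. The lines, spelled in the labels as MDA-MD-231 and MDA-MD-468, are established human triple-negative breast cancer lines.

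In the inhibitor experiment (22 libraries), the controls of each line were 1 DMSO library and 1 library of parental cells, both at 0 h. Each line was also given SY200, V50 or the combination SY200/V50 for 3, 6 and 12 h, with 1 library for each treatment and time. The labels do not say which kinase an agent hits or the unit of its dose. All controls were taken at 0 h, so treatment and time since plating cannot be told apart in any comparison with control. In the knockout experiment (11 libraries, MDA-MD-231), an Empty vector control and cells with CDK1 KO, CDK7 KO, CDK9 KO or both CDK7 and CDK9 lost (CDK7/9 KO) were each sampled at 72 and 96 h, beside 1 parental library at 0 h. CDK1 drives entry into mitosis, CDK7 belongs to the initiation factor that phosphorylates RNA polymerase II at promoters, and CDK9 releases the paused polymerase into elongation. The labels do not give the number of clones behind a knockout, and they do not say that libraries came from separate cultures. The p-values therefore measure only the spread between these libraries, part of which may be technical. With 1 library per line, treatment and time, the inhibitor fit draws that spread from differences between the lines in response and among the controls. The knockout fit draws it from how far the genotype differences varied between 72 and 96 h.

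Most human snoRNAs are cut from introns of a host transcript after splicing and guide the ribose methylation (box C/D) or pseudouridylation (box H/ACA) of ribosomal and spliceosomal RNA. Coding hosts mostly make proteins of ribosome production and translation, while the spliced exons of the noncoding hosts carry no long reading frame, and several of them, GAS5 among them, are known to be removed by nonsense-mediated decay when they are translated. Many hosts start transcription at a C followed by a run of pyrimidines, the motif that marks the messages of the translation machinery. According to RefSeq all 29 described hosts carried at least 1 small RNA inside the gene, 74 in all. Of these, 43 were box C/D snoRNAs, 28 were box H/ACA snoRNAs and 3 were Cajal body RNAs. GAS5 carried 11 and SNHG1 carried 8, the others at most 5. The libraries measured the spliced, polyadenylated host and not its snoRNAs. Of the hosted small RNAs, 63 had a row in the count table, 49 of those rows held no read in any library, and the 2195 reads of the rest compare with 1639304 reads on the hosts.

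The start windows of 9 hosts that carry the results below are shown, from RefSeq (GRCh38.p14), with 10 bases before the annotated start and 20 from it on the strand of the gene. Capitals mark the run of C and T from the first transcribed base where that base is C and at least 4 pyrimidines follow. The first 3 hosts were called lower in treated cells and have such a run.
SNHG12 (chr1:28581854-28581883, minus strand): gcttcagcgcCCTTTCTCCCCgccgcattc
RABGGTB (chr1:75786246-75786275, plus strand): cctgctctctCCTTTCCCTgttagacatgg
EIF4A2 (chr3:186783567-186783596, plus strand): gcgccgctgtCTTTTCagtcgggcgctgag
The next 3 have the run and were called higher under SY200/V50.
ZFAS1 (chr20:49278632-49278661, plus strand): gccattcgttCTTTCgcgtctgcggtgccc
SNHG32 (chr6:31834906-31834935, plus strand): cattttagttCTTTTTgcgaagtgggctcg
SNHG5 (chr6:85678714-85678743, minus strand): gcacttcggtCTTTTacgtcggccttcgcg
The last 3 lack the run at the annotated base, and the first 2 of them were called lower.
SNHG3 (chr1:28505933-28505962, plus strand): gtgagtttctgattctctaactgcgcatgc
SNHG7 (chr9:136728165-136728194, minus strand): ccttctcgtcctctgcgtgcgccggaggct
NCL (chr2:231464465-231464494, minus strand): ctttcgcctcagtctcgagctctcgctggc
A C followed by at least 4 pyrimidines stood at the annotated start of 8 of the 26 hosts with a RefSeq start sequence, against 1417 of 34943 starts in all (4.06%). The annotated base can lie a few bases or more from the base used in these cells. For GAS5 the RefSeq window (chr1:173869026-173869055, minus strand) lies wholly outside the GENCODE gene, which ends at 173868882. Lack of the run at the annotated base therefore does not show its absence in these cells. An example of what such introns carry is SNORD45C, a box C/D snoRNA inside RABGGTB, with its C box (letters TGATGA) and D box (letters CTGA) in capitals, taken from the annotation and not from reads.
SNORD45C: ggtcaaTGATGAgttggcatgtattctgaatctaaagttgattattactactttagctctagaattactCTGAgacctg

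Libraries held 16985219 to 22859779 counts, of which 31700 to 80886 fell on the 29 hosts, and the noncoding hosts took 0.0756% to 0.171% of a library. The line labels matched the markers. A fixed list of 7 MDA-MB-231 markers summed to 7311 to 21164 CPM (counts relative to the scaled library size) in the 22 libraries labelled MDA-MD-231 and to 943 to 2957 CPM in the 11 labelled MDA-MD-468, and a list of 7 MDA-MB-468 markers summed to 327 to 1393 and to 4167 to 8665 CPM. The targets of the knockouts were lower in RNA than with the empty vector. CDK1 stood at 81.7 and 84.3 CPM in the CDK1 KO libraries against 178 and 283 CPM with the empty vector, but at 84.4 CPM in the parental library too, and CDK7 stood at 13.7 to 17.1 CPM in the CDK7 KO and CDK7/9 KO libraries against 49.0 and 66.5 CPM. Mitochondrially encoded mRNAs took 2.17% to 5.05% of the counts of the MDA-MD-231 libraries of the inhibitor experiment and 3.88% to 13.5% of those of MDA-MD-468, with the highest share at 12 h of SY200/V50 in both lines.

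Under V50 and under SY200/V50 some hosts fell and others rose, and under SY200 the called hosts all fell. Averaged over 3, 6 and 12 h and both lines, SY200 lowered 7 of the 29 hosts and raised none. V50 lowered 4 and raised 6, and SY200/V50 lowered 9 and raised 10, on the usual scale of CPM after TMM scaling, on which the effective sizes of the libraries are matched over most genes. The calls come from edgeR's quasi-likelihood test at a Benjamini-Hochberg adjusted p of 0.05 over 18911 genes. Among all those genes SY200 raised 0.968% and lowered 1.02%, V50 raised 10.4% and lowered 11.9%, and SY200/V50 raised 24% and lowered 24.2%. The 7 lower hosts under SY200 numbered 2 with DMSO alone as control, 0 with no block for the line, and as few as 2 when 1 library was left out. For the 0 hosts higher under SY200, 2 of 25 noncoding hosts and 0 of 4 coding hosts were higher at an unadjusted p of 0.05, and DESeq2 called 0. In either direction, 3195 of the 18911 genes were under that unadjusted p. The 25 noncoding hosts had a median log2 fold change of -0.25 under SY200, 0.21 under V50 and 0.17 under SY200/V50, where the medians over all genes were -0.01, -0.004 and 0.09. Counts in a library are relative to one another, so fewer cells holding a host RNA and less of it in each cell cannot be told apart.

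**Figure D1:**
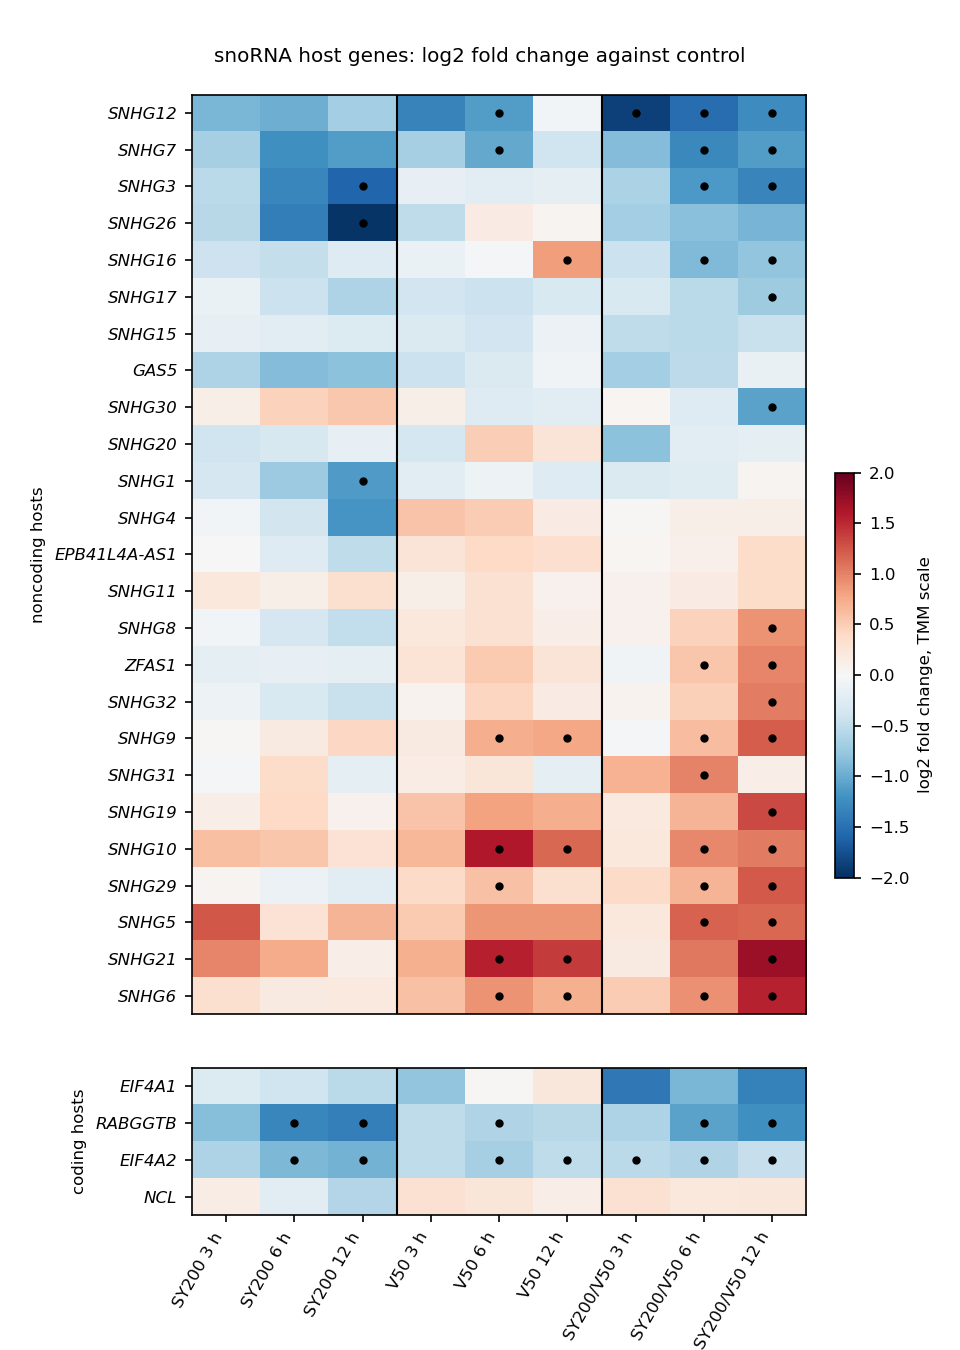
Log2 fold change of 25 noncoding and 4 coding snoRNA hosts (rows) against control at 3, 6 and 12 h of SY200, V50 and SY200/V50 (columns), from 1 library for each line and time, on the TMM scale. Colour runs from -2 (lower) to 2 (higher) and a dot marks an adjusted p under 0.05. Blue rows such as SNHG12, SNHG7 and RABGGTB lie at one end and red rows such as SNHG6 and SNHG29 at the other, and SY200/V50 has 2 dots at 3 h, 13 at 6 h and 18 at 12 h; averaged over the 3 times, no host was called higher when libraries were scaled to mitochondrial mRNAs.

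The direction of the rises depends on that scale. Scaling the libraries to the 13 mitochondrially encoded mRNAs, which another polymerase makes, moved the median of all genes from -0.01 to -0.44 under SY200, from -0.004 to -0.92 under V50 and from 0.09 to -1.33 under SY200/V50. On that scale no host was called higher, and 19, 23 and 27 of 29 were called lower. Of all 18911 genes, 202, 309 and 171 were called higher there and 5097, 13964 and 15661 lower. The hosts' median moved along with the other genes, from -0.29 to -0.70, from 0.17 to -0.73 and from 0.08 to -1.31. SNHG10 and SNHG21, at 0.22 and 0.34 under V50, kept a positive value but were not called. The called falls of the 3 treatments averaged over time were negative on either scale. Single times, SY200/V50 or V50 against SY200, the sum of both, the lines and the knockouts were not run on the mitochondrial scale. The absolute amount of the mitochondrial mRNAs was not measured.

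**Figure D2:**
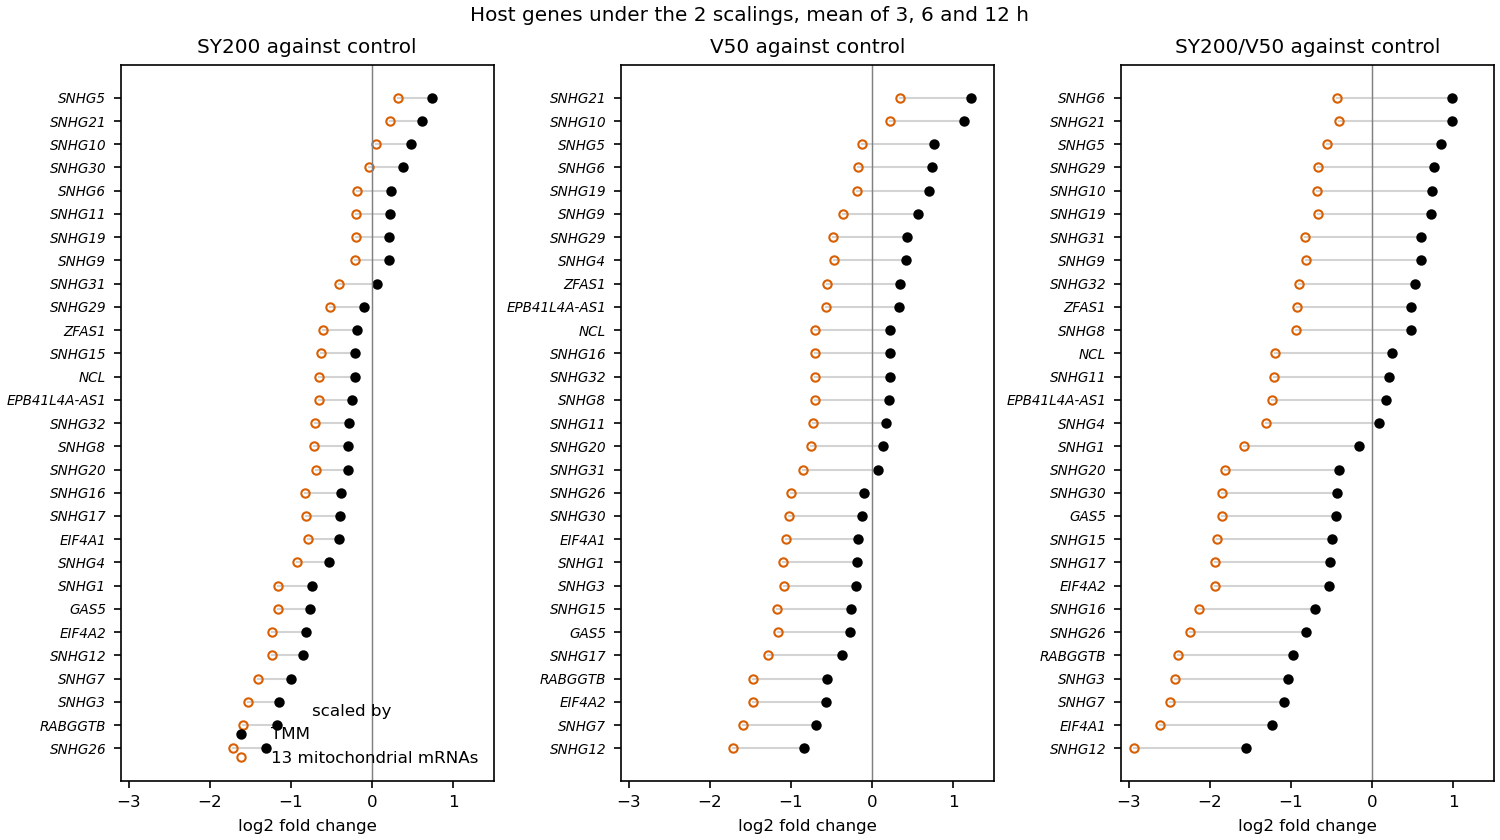
Log2 fold change against control of the 29 hosts (horizontal points, 1 for each host) for SY200, V50 and SY200/V50, on the TMM scale (filled black) and scaled to 13 mitochondrial mRNAs (open orange). On the TMM scale the hosts' medians are -0.29, 0.17 and 0.08; on the mitochondrial scale they are -0.70, -0.73 and -1.31, and no host is called higher there.

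Among the noncoding hosts, SNHG12, SNHG7 and SNHG3 had the largest falls under SY200/V50. SNHG12 (chr1:28578538-28583132, minus strand, GENCODE 29 on GRCh38) carries SNORA44, SNORA61, SNORA16A and SNORD99. In MDA-MD-231 it stood at 24.1 and 21.8 CPM in the DMSO and parental libraries, at 10.1, 8.33 and 10.5 CPM after 3, 6 and 12 h of SY200, at 5.45, 4.99 and 20.3 CPM after V50 and at 3.66, 5.03 and 5.93 CPM after SY200/V50. In MDA-MD-468 the controls were at 13.8 and 13.3 CPM, SY200 at 9.87, 10.9 and 13.2, V50 at 9.78, 13 and 15.3, and SY200/V50 at 6.81, 8.32 and 10.0 CPM. All 6 SY200/V50 libraries and all 6 SY200 libraries lay below both controls of their line, while after 12 h of V50 the level was just below the controls in MDA-MD-231 and above them in MDA-MD-468. The mean log2 fold change was -1.55 ± 0.28 (SE, edgeR adjusted p = 0.000218) under SY200/V50, -0.84 ± 0.27 (0.0359) under V50 and -0.85 ± 0.27 (0.109, not called) under SY200. Under V50 the call was lost without any 1 of 5 of the 22 libraries, at values of -0.63 to -0.75. SNHG12 overlaps exons of TRNAU1AP on the other strand, and with the strand setting of the counting not given in the sources used here, their reads cannot be told apart. The same limit holds for other hosts, among them SNHG7 (FAM69B), EIF4A2 (RFC4), SNHG29 (LRRC75A), SNHG6 (MCMDC2), GAS5 (GAS5-AS1) and ZFAS1 (ZNFX1). On the same strand, SNHG4 shares exonic sequence with MATR3 and SNHG21 with AC105339.2.

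SNHG7 (chr9:136721366-136728184, minus strand) hosts SNORA17A and SNORA17B. It stood at 48.4 and 67.4 CPM in the MDA-MD-231 controls, at 34.6, 17.7 and 19.5 CPM with SY200, at 34.8, 20.1 and 41.0 CPM with V50 and at 32.8, 16.0 and 19.5 CPM with SY200/V50. In MDA-MD-468 it stood at 35.6 and 44.8 CPM in the controls, at 27.5, 23.8 and 25.7 with SY200, at 27.0, 27.8 and 33.4 with V50 and at 21.1, 23.9 and 25.6 CPM with SY200/V50. Every treated library lay below both controls of its line. SNHG7 was the noncoding host called lower by all 3 treatments, at -1 ± 0.20 (adjusted p = 0.0217) under SY200, -0.70 ± 0.20 (0.0218) under V50 and -1.09 ± 0.20 (0.000335) under SY200/V50 in edgeR. With DMSO alone as control SNHG7 was at -0.795 under SY200 and -0.49 under V50, neither called. The SY200 call was also lost without any 1 of 5 libraries (either parental library, the 6 or 12 h SY200 library of MDA-MD-231 or the 3 h one of MDA-MD-468, at -0.82 to -1.05) and the V50 call without any 1 of 3 (the MDA-MD-231 parental or 6 h V50 library or the MDA-MD-468 V50 library at 3 h, at -0.51 to -0.65).

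SNHG3 (chr1:28505980-28510892, plus strand), host of SNORA73A and SNORA73B and a neighbour of SNHG12, fell with SY200 and with SY200/V50. Its levels in MDA-MD-231 were 90.0 and 83.5 CPM in the controls, 54.2, 26.9 and 26.0 CPM with SY200, 55.9, 58.8 and 79.3 CPM with V50 and 43.5, 25.5 and 16.9 CPM with SY200/V50. In MDA-MD-468 they were 20.8 and 24.5 CPM in the controls, 17.8, 12.5 and 8.62 with SY200, 28.9, 25.8 and 18.4 with V50 and 19.7, 15.9 and 16.6 CPM with SY200/V50. All SY200 and SY200/V50 libraries lay below both controls of their line, and V50 alone lay on either side of them in MDA-MD-468. The log2 fold change was -1.15 ± 0.23 (edgeR adjusted p = 0.0217) under SY200 and -1.03 ± 0.24 (0.00168) under SY200/V50. The SY200 call was lost with DMSO alone as control (-1.15) and without any 1 of 6 libraries (both controls and the 3 and 6 h SY200 libraries of MDA-MD-231, and the 3 and 12 h SY200 libraries of MDA-MD-468), at -1.02 to -1.22. SNHG3 shares exonic sequence with RCC1 on its own strand, so part of its reads could belong to either gene.

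Some other noncoding hosts fell under SY200 with smaller margins. GAS5 (chr1:173863900-173868882, minus strand), the host with the most snoRNAs, stood at 92.4 and 103 CPM in the MDA-MD-231 controls, at 56.2, 39.7 and 38.3 with SY200, at 56.4, 58.9 and 92.6 with V50 and at 45, 47.8 and 66.2 CPM with SY200/V50. In MDA-MD-468 the controls were at 78.1 and 108 CPM, SY200 at 71.5, 71.1 and 77.0, V50 at 92.5, 106 and 87.9, and SY200/V50 at 80.8, 94.8 and 116 CPM. In MDA-MD-231 GAS5 lay below both controls in every treated library but that of 12 h of V50, whereas in MDA-MD-468 the SY200 libraries alone all lay below both controls, the 12 h value by little. Its log2 fold change was -0.77 ± 0.18 (edgeR adjusted p = 0.0398) under SY200, a call lost without any 1 of 12 of the 22 libraries at values of -0.64 to -0.87, and it was -0.27 ± 0.18 (0.308) and -0.45 ± 0.18 (0.0524) under V50 and SY200/V50.

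SNHG1 (chr11:62851988-62855914, minus strand), host of 8 box C/D snoRNAs, stood at 61.0 and 78.6 CPM in the MDA-MD-231 controls and at 57.2, 37.0 and 27.0 CPM after 3, 6 and 12 h of SY200. In MDA-MD-468 it went from 107 and 160 CPM to 101, 89.6 and 69.7 CPM. All 6 SY200 libraries lay below both controls, with the lowest value at 12 h in each line. SNHG1 changed by -0.74 ± 0.15 (edgeR adjusted p = 0.0217) under SY200, and V50 and SY200/V50 did not reach a call. With DMSO alone as control it was at -0.49 and not called, and the call was also lost without either parental library, the 3 or 6 h SY200 library of MDA-MD-231 or the 3 h one of MDA-MD-468, at -0.63 to -0.76.

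SNHG26 (chr7:22854178-22861579, plus strand), host of SNORD93, had the lowest log2 fold change of SY200 among the hosts and low counts. It stood at 4.11 and 6.35 CPM in the MDA-MD-231 controls, at 4.44, 2.20 and 1.20 with SY200, at 5.35, 8.22 and 5.06 with V50 and at 4.18, 4.03 and 3.70 CPM with SY200/V50. The MDA-MD-468 values were 1.38 and 2.46 CPM in the controls, 1.01, 0.676 and 0.580 with SY200, 0.772, 1.40 and 2.12 with V50 and 0.889, 0.698 and 0.656 CPM with SY200/V50. The SY200 levels were below control at 6 and 12 h in both lines, and the 3 h level in MDA-MD-231 lay between the controls. SNHG26 changed by -1.30 ± 0.28 (edgeR adjusted p = 0.029) under SY200 and by -0.82 ± 0.28 (0.0238) under SY200/V50. Without the MDA-MD-468 parental library the first was -1.06 and the second -0.58, neither called. In all, the SY200 call was lost without any 1 of 6 of the 22 libraries, at -1.06 to -1.35, and with DMSO alone as control (-0.90). The SY200/V50 call was lost without any 1 of 3, at -0.58 to -0.78.

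SNHG16 (chr17:76557766-76565348, plus strand), host of SNORD1A, SNORD1B and SNORD1C, moved in opposite directions under V50 at 12 h and under SY200/V50. It stood at 78.7 and 98.8 CPM in the MDA-MD-231 controls, at 68.5, 68.4 and 71.3 with SY200, at 89.9, 89.2 and 208 with V50 and at 75.0, 57.3 and 67.8 CPM with SY200/V50. Levels in MDA-MD-468 were 41.3 and 68.7 CPM in the controls, 40.1, 37.1 and 47.6 with SY200, 45.8, 51.8 and 72.8 with V50 and 36.3, 25.3 and 23.1 CPM with SY200/V50. The V50 library at 12 h was the highest of its line in both lines, far above the rest in MDA-MD-231, and all 6 SY200/V50 libraries lay below both controls. The log2 fold change was -0.70 ± 0.17 (edgeR adjusted p = 0.0025) under SY200/V50, while V50 at 12 h alone gave 0.84 ± 0.22 (0.0179). SNHG17, host of 4 SNORA71 copies, was the remaining noncoding host lower under SY200/V50, at -0.52 ± 0.16 (0.014). With DMSO alone as control SNHG16 was at -0.42 and SNHG17 at -0.22 under SY200/V50, neither called.

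By position alone, every SY200 library lay below both controls of its line for 7 hosts (EIF4A2, RABGGTB, GAS5, SNHG1, SNHG12, SNHG3 and SNHG7), against 3.35% of all genes below and 4.46% above. Every SY200/V50 library did so for 6 hosts (EIF4A2, RABGGTB, SNHG12, SNHG16, SNHG3 and SNHG7), against a background of 15.7%. For V50 the hosts below were EIF4A2, RABGGTB and SNHG7, against 5.09% of all genes. Above both controls lay no host under SY200, EPB41L4A-AS1, SNHG29 and SNHG6 under V50 (background 8.8%) and SNHG29 and SNHG6 under SY200/V50 (background 16%).

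SNHG6 and SNHG29 were the hosts that stood above control in both lines with V50 and with SY200/V50, on the TMM scale; scaled to mitochondrial mRNAs their sign turned. SNHG6, host of SNORD87 on chromosome 8, stood at 38.3 and 57.0 CPM in the MDA-MD-231 controls, at 57.7, 44.1 and 44.7 with SY200, at 67.6, 85.2 and 75.4 with V50 and at 60.4, 82.0 and 125 CPM with SY200/V50. In MDA-MD-468 it stood at 28.6 and 34.6 CPM in the controls, at 40.6, 43.8 and 44.3 with SY200, at 50.9, 61.6 and 54.2 with V50 and at 51.0, 66.0 and 102 CPM with SY200/V50. The highest value of each line was the 12 h SY200/V50 library, and in MDA-MD-231 SY200 overlapped the controls. SNHG6 changed by 0.73 ± 0.14 (edgeR adjusted p = 0.00182) under V50 and by 0.99 ± 0.14 (2.58e-05) under SY200/V50, and by -0.17 and -0.43 on the mitochondrial scale.

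SNHG29 (chr17:16438822-16478678, plus strand, named LRRC75A-AS1 in GENCODE 29) carries SNORD49A, SNORD49B and SNORD65. It stood at 319 and 460 CPM in the MDA-MD-231 controls, at 537, 635 and 506 CPM with V50 and at 508, 639 and 952 CPM with SY200/V50. The MDA-MD-468 values were 239 and 286 CPM in the controls, 321, 361 and 317 with V50 and 343, 415 and 586 CPM with SY200/V50. No V50 or SY200/V50 library overlapped the controls of its line, and SY200 lay within or below their range, at 424, 340 and 296 CPM in MDA-MD-231 and at 258, 257 and 250 CPM in MDA-MD-468. SNHG29 changed by 0.43 ± 0.11 (edgeR adjusted p = 0.0121) under V50 and by 0.76 ± 0.11 (4.04e-05) under SY200/V50, and by -0.49 and -0.67 on the mitochondrial scale.

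**Figure D3:**
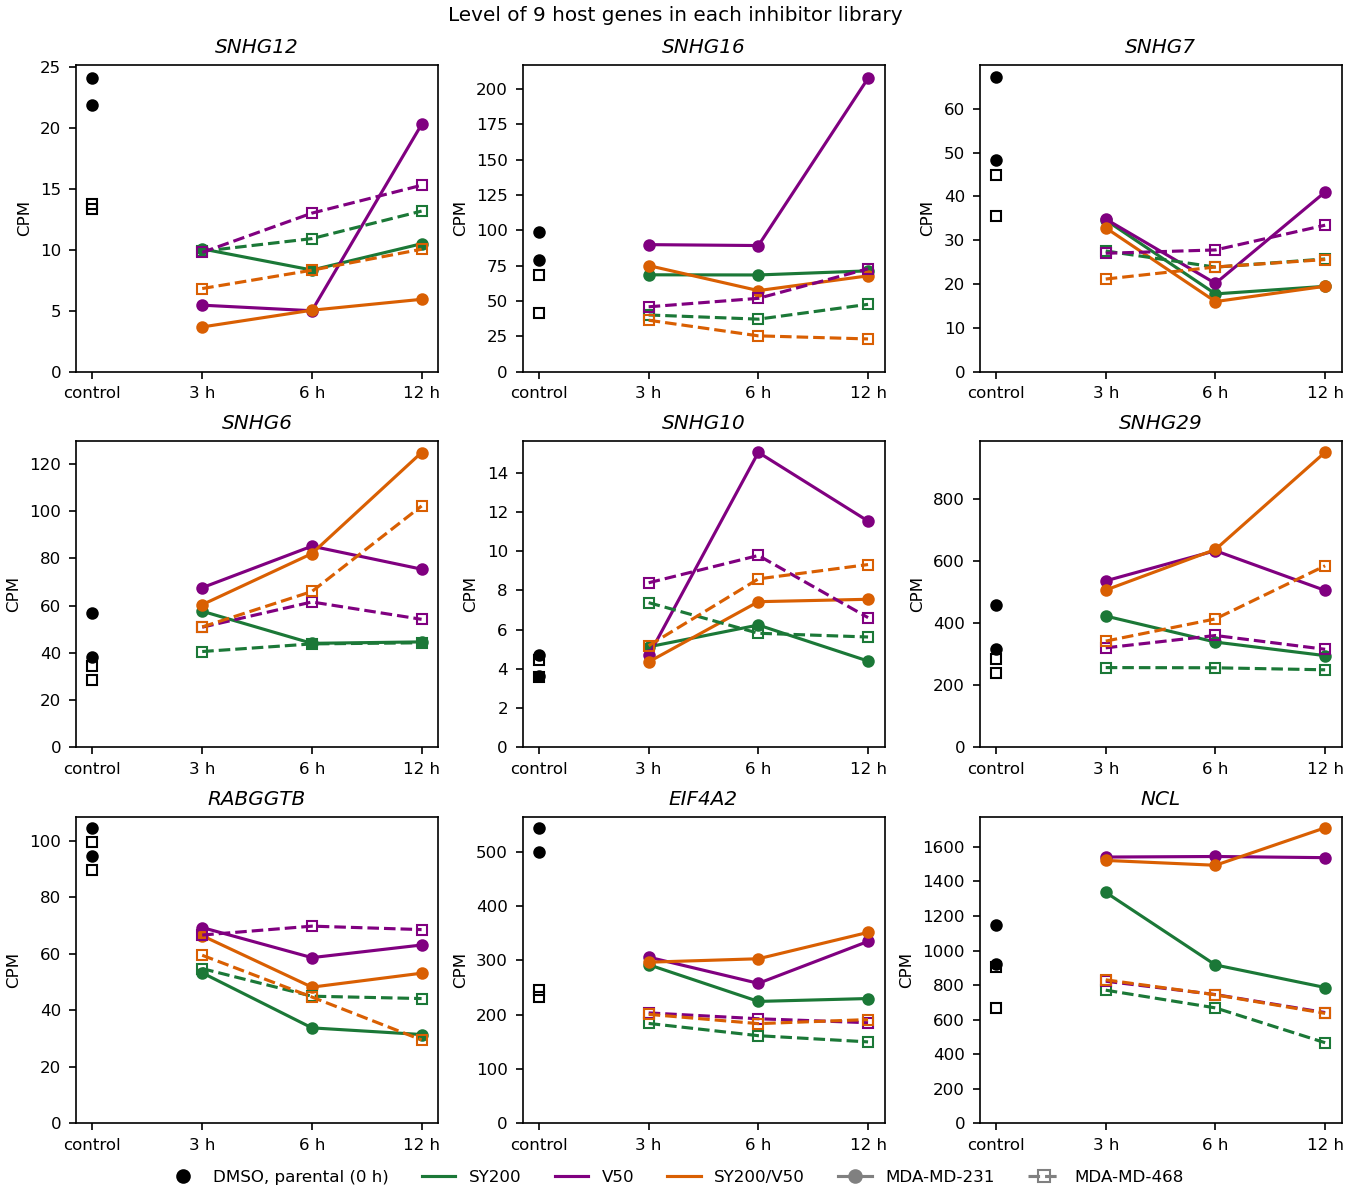
CPM on the TMM scale (vertical) of 9 hosts in the 22 inhibitor libraries by control and time (horizontal), with filled circles for MDA-MD-231, open squares for MDA-MD-468, and green, purple and orange for SY200, V50 and SY200/V50; each point is 1 library. SNHG12, SNHG7, RABGGTB and EIF4A2 sit below their controls with SY200/V50, SNHG16 reaches 208 CPM at 12 h of V50 in MDA-MD-231, and SNHG6 reaches 125 and 102 CPM at 12 h of SY200/V50, on the TMM scale (its mean over the 3 times was -0.43 when scaled to mitochondrial mRNAs).

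SNHG10, SNHG21 and SNHG5 rose at low levels on the TMM scale; scaled to mitochondrial mRNAs the SY200/V50 values of all 3 turned negative. SNHG10 (chr14:95532297-95534872, minus strand) carries the Cajal body RNA SCARNA13. It stood at 3.63 and 4.71 CPM in the MDA-MD-231 controls, at 5.12, 6.24 and 4.4 with SY200, at 4.68, 15.0 and 11.5 with V50 and at 4.36, 7.42 and 7.55 CPM with SY200/V50. Levels in MDA-MD-468 were 3.58 and 4.48 CPM in the controls, 7.38, 5.82 and 5.63 with SY200, 8.39, 9.78 and 6.61 with V50 and 5.18, 8.59 and 9.31 CPM with SY200/V50. Every treated MDA-MD-468 library lay above both controls, and in MDA-MD-231 the 3 h libraries of V50 and SY200/V50 and the 12 h library of SY200 lay between them. SNHG10 changed by 1.14 ± 0.23 (edgeR adjusted p = 0.00255) under V50 and by 0.74 ± 0.23 (0.0126) under SY200/V50. GLRX5 overlaps it on the other strand.

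SNHG21 (chr15:82750564-82757206, plus strand), host of SCARNA15, stood at 0.878 and 0.984 CPM in the MDA-MD-231 controls, at 1.37, 1.12 and 0.889 with SY200, at 0.916, 2.21 and 2.07 with V50 and at 0.465, 1.13 and 1.69 CPM with SY200/V50. In MDA-MD-468 it stood at 0.551 and 0.395 CPM in the controls, at 1.43, 1.26 and 0.670 with SY200, at 1.44, 1.99 and 1.69 with V50 and at 1.14, 1.82 and 3.02 CPM with SY200/V50. All treated MDA-MD-468 libraries were above control, and in MDA-MD-231 the 3 h values of V50 and SY200/V50 were within or below the range of the controls, and the 12 h value of SY200 within it. SNHG21 changed by 1.23 ± 0.32 (edgeR adjusted p = 0.0121) under V50 and by 0.98 ± 0.33 (0.0197) under SY200/V50. Its largest count in any library was 46, and counting error is therefore large.

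SNHG5 (chr6:85660950-85678748, minus strand), host of SNORD50A and SNORD50B, stood at 2.36 and 3.65 CPM in the MDA-MD-231 controls, at 4.39, 4.24 and 4.31 with SY200, at 3.26, 5.22 and 4.4 with V50 and at 2.5, 4.97 and 5.31 CPM with SY200/V50. The MDA-MD-468 values were 1.24 and 1.45 CPM in the controls, 5.15, 1.26 and 2.5 with SY200, 2.68, 2.74 and 3.33 with V50 and 2.27, 4.35 and 3.94 CPM with SY200/V50. The 3 h values of V50 and SY200/V50 overlapped the controls in MDA-MD-231, and all of them lay above the controls in MDA-MD-468. SNHG5 changed by 0.74 ± 0.26 (edgeR adjusted p = 0.158, not called) under SY200, 0.76 ± 0.26 (0.047) under V50 and 0.85 ± 0.27 (0.0147) under SY200/V50, and the V50 call was lost without any 1 of 17 of the 22 libraries at values of 0.64 to 0.82.

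SNHG9 was called higher under V50 at 0.56 ± 0.18 (edgeR adjusted p = 0.0318) and under SY200/V50 at 0.60 ± 0.18 (0.0106). Under SY200/V50 alone, SNHG8, ZFAS1, SNHG32 and SNHG19 were also higher, by 0.48, 0.49, 0.52 and 0.73. Their highest levels were at 12 h of SY200/V50 in both lines: SNHG8 67.5 and 25.1 CPM against 26.7 to 41.4 and 12.1 to 16.5 in the controls, and ZFAS1 39.9 and 32.7 CPM against 19.2 to 22.4 and 15.1 to 17.3. On the mitochondrial scale the SY200/V50 values of SNHG8, SNHG9, SNHG19, SNHG32 and ZFAS1 were all negative.

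Host calls were fewest at 3 h for each treatment. At 3 h of SY200 no host was called by edgeR, where 0.423% of all genes were. There, 5 noncoding and 2 coding hosts had an unadjusted p under 0.05, as had 2322 of 18911 genes. At 6 h of SY200 RABGGTB and EIF4A2 were called lower (0.264% of all genes), and at 12 h these and SNHG26, SNHG3 and SNHG1 (2.43%). SNHG26 reached -1.96 ± 0.43 at 12 h (edgeR adjusted p = 0.0277) and SNHG3 -1.59 ± 0.34 (0.0258). V50 called 0 hosts at 3 h (4.1% of all genes), 9 at 6 h (23.4%) and 6 at 12 h (15.2%). Unadjusted, 5 noncoding and 2 coding hosts had a p under 0.05 at 3 h of V50, as had 3972 of 18911 genes. SNHG12, SNHG7 and RABGGTB were called lower at 6 h of V50 and not at 12 h. SNHG10 was at 1.60 ± 0.28 at 6 h (0.00127) and 1.15 ± 0.29 at 12 h (0.0131). SY200/V50 called 2 hosts at 3 h (7.54%), 13 at 6 h (34.7%) and 18 at 12 h (49.6%). The 2 at 3 h were SNHG12 at -1.87 ± 0.41 (0.0103) and EIF4A2 at -0.54 ± 0.15 (0.0396). At 12 h SNHG6 reached 1.54 ± 0.17 (3.9e-06), SNHG29 1.22 ± 0.14 (4.97e-06) and SNHG30, host of SNORD7, -1.07 ± 0.27 (0.00407), on the TMM scale.

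A direct test of 12 h against 3 h, in which the 0 h controls play no part, called 0 hosts for SY200 (1.95% of all genes). Unadjusted, 4 noncoding and 2 coding hosts were lower for SY200, and DESeq2 called 4 lower. In either direction, 3972 of 18911 genes had an unadjusted p under 0.05 for SY200. For V50 the direct test called SNHG16 higher at 0.96 ± 0.26 (edgeR adjusted p = 0.0235) and no host lower, against 7.97% and 4.84% of all genes. Without the MDA-MD-231 V50 library at 12 h the value for SNHG16 was 0.64 and not called. For SY200/V50, 7 hosts were higher at 12 h than at 3 h and 1 was lower, against 9.57% and 8.73% of all genes. The higher were SNHG9 at 1.23, ZFAS1 at 1.05, SNHG6 at 1.02, SNHG32 at 0.94, SNHG29 at 0.84 and SNHG8 at 0.82, beside SNHG21 at 1.54 ± 0.49 (0.0366), and the lower was SNHG30 at -1.10 ± 0.31 (0.0196). SNHG30 stood at 8.71, 6.42 and 3.70 CPM after 3, 6 and 12 h of SY200/V50 in MDA-MD-231 and at 9.97, 8.75 and 4.99 CPM in MDA-MD-468, a decline in both lines. No host was called higher on the mitochondrial scale and 15 were called lower, against 156 and 10440 of 18911 genes. Leaving out the MDA-MD-231 SY200/V50 library at 3 h left 0 hosts higher, and leaving out that line's 12 h library or the MDA-MD-468 library at 3 h left 4.

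Against V50 alone, adding SY200 lowered SNHG16 by 0.92 ± 0.15 on the log2 scale (edgeR adjusted p = 0.000813), SNHG3 by 0.84 ± 0.21 (0.0119) and RABGGTB by 0.42 ± 0.14 (0.0424), and raised SNHG29 by 0.33 ± 0.10 (0.0252). The RABGGTB call was lost without any 1 of 11 of the 22 libraries, at -0.38 to -0.45, and the SNHG29 call without any 1 of 8, at 0.29 to 0.34, and both without the filter on low counts. Of all genes 12.4% were lower and 7.52% higher. On the mitochondrial scale 19 hosts were lower and none higher, against 6599 and 8 of 18911 genes, and SNHG29 was at -0.18. At 12 h alone 10 hosts differed (37.6% of all genes), with SNHG16 at -1.63 ± 0.27 (0.000282), SNHG12 at -1.21 ± 0.43 (0.0375) and SNHG29 at 0.90 ± 0.17 (0.000857). SY200/V50 against SY200 alone gave 13 called hosts on the TMM scale, a share near that of all genes (46%). Of these, 11 were higher, among them SNHG1 at 0.58, NCL at 0.46 and EIF4A2 at 0.29. The 2 lower were SNHG30 at -0.81 and SNHG12 at -0.70. The rises depend on the scale. Against control on the mitochondrial scale, SNHG1, NCL and EIF4A2 were at -1.16, -0.66 and -1.23 under SY200. Under SY200/V50 they were lower there, at -1.58, -1.20 and -1.94. V50 against SY200 gave 14 hosts higher and 0 lower, where 3.2% of all genes were higher and 5.1% lower, the largest being SNHG26 at 1.20 ± 0.26 (0.0108), SNHG3 at 0.95 ± 0.21 (0.0128) and SNHG4 at 0.95 ± 0.19 (0.00783). At an unadjusted p of 0.05, 1 noncoding host was lower there, and 4711 of 18911 genes differed in either direction. These comparisons share libraries with each other and with those against control, so they are not independent of them.

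Against the sum of the 2 single log2 effects, SY200/V50 was higher for EIF4A2 by 0.85 ± 0.15 (edgeR adjusted p = 0.00799), SNHG1 by 0.76 ± 0.20 (0.0383) and RABGGTB by 0.75 ± 0.21 (0.0447), where 5.04% of all genes differed. For EIF4A2 and RABGGTB both single treatments were lower than control, and the combination was lower by less than their sum.

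Of the coding hosts, RABGGTB and EIF4A2 fell under all 3 treatments, EIF4A1 under SY200/V50 and NCL under none. RABGGTB (chr1:75786197-75795079, plus strand), the catalytic beta subunit of the enzyme that attaches geranylgeranyl to Rab proteins, hosts SNORD45A, SNORD45B and SNORD45C. It stood at 105 and 94.4 CPM in the MDA-MD-231 controls, at 53.3, 33.8 and 31.4 with SY200, at 69.3, 58.6 and 63.1 with V50 and at 66.4, 48.2 and 53.1 CPM with SY200/V50. Levels in MDA-MD-468 were 99.4 and 89.6 CPM in the controls, 54.8, 45 and 44.2 with SY200, 66.6, 69.8 and 68.6 with V50 and 59.5, 44.7 and 29.5 CPM with SY200/V50. Every treated library lay below both controls of its line. RABGGTB changed by -1.17 ± 0.15 (edgeR adjusted p = 0.00169), -0.56 ± 0.15 (0.0155) and -0.97 ± 0.15 (6.6e-05) under SY200, V50 and SY200/V50. It shares an exonic stretch with ACADM on the same strand.

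EIF4A2 (chr3:186783205-186789900, plus strand), an RNA helicase of translation initiation, hosts SNORD2, SNORA63, SNORA63B, SNORA81 and SNORA4. It stood at 498 and 544 CPM in the MDA-MD-231 controls, at 292, 224 and 230 with SY200, at 306, 258 and 335 with V50 and at 296, 303 and 351 CPM with SY200/V50. In MDA-MD-468 it stood at 232 and 246 CPM in the controls, at 184, 161 and 150 with SY200, at 203, 192 and 185 with V50 and at 200, 183 and 191 CPM with SY200/V50. No treated library overlapped the controls of its line. EIF4A2 changed by -0.82 ± 0.11 (edgeR adjusted p = 0.00223), -0.57 ± 0.11 (0.00233) and -0.53 ± 0.11 (0.000841), the last being called at 3, 6 and 12 h.

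NCL (chr2:231453531-231483641, minus strand) encodes nucleolin, a nucleolar protein of ribosomal RNA synthesis, and hosts SNORD20, SNORD82 and SNORA75. It stood at 923 and 1150 CPM in the MDA-MD-231 controls, at 1337, 917 and 786 with SY200, at 1541, 1545 and 1538 with V50 and at 1522, 1494 and 1711 CPM with SY200/V50. The MDA-MD-468 values were 666 and 904 CPM in the controls, 771, 668 and 467 with SY200, 823, 745 and 641 with V50 and 831, 744 and 637 CPM with SY200/V50. V50 and SY200/V50 lay above both controls in MDA-MD-231 and within or just below their range in MDA-MD-468. Over both lines NCL was at -0.22 ± 0.15, 0.23 ± 0.15 and 0.24 ± 0.15, with edgeR adjusted p of 0.483, 0.286 and 0.184.

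EIF4A1 (chr17:7572706-7579005, plus strand), the paralogue of EIF4A2, hosts SNORA48, SNORA67 and SNORD10 and was counted at few reads. It stood at 4.47 and 2.58 CPM in the MDA-MD-231 controls, at 1.97, 2.66 and 2.36 with SY200, at 0.866, 1.70 and 4.35 with V50 and at 0.929, 0.692 and 0.462 CPM with SY200/V50. Levels in MDA-MD-468 were 2.29 and 2.37 CPM in the controls, 3.13, 1.85 and 1.70 with SY200, 2.78, 4.73 and 2.49 with V50 and 1.33, 2.63 and 1.97 CPM with SY200/V50. The fall was in MDA-MD-231, where all SY200/V50 libraries lay below the controls, while in MDA-MD-468 they lay on either side of them. EIF4A1 changed by -1.23 ± 0.43 (edgeR adjusted p = 0.0242) under SY200/V50, a call lost without any 1 of 4 libraries. Its exons overlap those of the readthrough gene SENP3-EIF4A1 on the same strand, and how the authors' counting split reads between them is not given in the sources used here, so its level is uncertain.

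Before treatment the lines differed in host levels about as often as in genes at large. With MDA-MD-468 controls set against MDA-MD-231 controls, edgeR called 15 of the 29 hosts, a share near that of all genes (53.8%). Of these, 9 were lower and 6 higher in MDA-MD-468, and shares of all genes by direction are not given. SNHG3 was lower by 1.94 ± 0.29 on the log2 scale (adjusted p = 5.01e-05) and EIF4A2 by 1.13 ± 0.14 (6.94e-06), while SNHG31 and SNHG15 were higher, at 1.51 and 1.13. The difference in response between lines was tested by an interaction term, and 0 hosts and 0% of all genes were called for any of the 3 treatments, although 1048, 1873 and 3009 of 18911 genes had an unadjusted p under 0.05. The unadjusted hosts were 6 for SY200, 4 for V50 and 8 for SY200/V50. SNHG12 had the smallest p among the hosts under SY200/V50, with an interaction of 1.55 ± 0.42 (edgeR adjusted p = 0.126), from a log2 CPM change of -2.15 for MDA-MD-231 cells against -0.68 for MDA-MD-468 cells, and SNHG3 followed at 1.31 ± 0.37 (0.137) from -1.68 and -0.37. NCL went the other way at -0.70 ± 0.22 (0.161). None of these can be called a difference between the lines at this depth of replication.

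Parental and DMSO controls, pooled above, did not differ in any host by edgeR (0.037% of all genes). At an unadjusted p of 0.05, 7 noncoding hosts were higher in parental cells and none lower, and the noncoding median was 0.35. In either direction, 1540 of 18911 genes were under that unadjusted p. A fit with DMSO alone as control also holds fewer control libraries. Whether a lost call reflects the level in the parental cells or the fewer libraries was not tested. With DMSO alone as control the SY200 calls went from 7 lower hosts to 2, and the V50 calls from 4 lower to 2. Under SY200/V50, SNHG16, SNHG17 and SNHG26 lost their calls as falls, SNHG26 at -0.42, and SNHG19, SNHG21 and SNHG9 theirs as rises, at 0.63, 0.92 and 0.47.

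In the knockout experiment every comparison was made against 2 empty-vector libraries, and these differed. The empty-vector libraries at 72 and 96 h had 94.4 and 142 CPM of SNHG1, 148 and 187 of GAS5, 917 and 1417 of NCL and 120 and 176 of RABGGTB. The 96 h library was above the 72 h library for all 4, and it had the lowest mitochondrial share of the experiment, 2.60% against 3.72% to 5.98% in the other libraries of the fit. Its part in the results was not tested beyond leaving it out.

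SNHG1 stood at 81.4 and 80.1 CPM in CDK9 KO at 72 and 96 h, at 67.8 and 66.6 in CDK7/9 KO, at 60.6 and 68.4 in CDK7 KO, at 97.1 and 112 in CDK1 KO and at 56.8 CPM in the parental library at 0 h. CDK9 KO, CDK7 KO and CDK7/9 KO lay below both empty-vector libraries, and so did the parental cells. SNHG1 changed by -0.53 ± 0.14 (edgeR adjusted p = 0.0428) in CDK9 KO and by -0.79 ± 0.14 (0.00981) in CDK7/9 KO. Without the 96 h empty-vector library these were -0.27 and -0.54. Leaving out 1 knockout library gave -0.40 to -0.68 in CDK9 KO. Leaving out a CDK7/9 KO library gave -0.95 or -0.66 in CDK7/9 KO. Neither call was kept whichever library was left out. With no block for the time the CDK9 KO value was -0.55 and not called.

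GAS5 stood at 129 and 122 CPM in CDK9 KO, at 107 and 115 in CDK7/9 KO, at 114 and 98.9 in CDK7 KO, at 125 and 140 in CDK1 KO and at 161 CPM in the parental library. All knockout libraries lay below both empty-vector libraries. GAS5 changed by -0.58 ± 0.12 (edgeR adjusted p = 0.0192) in CDK7/9 KO. ZFAS1, at 27.2 and 29.1 CPM with the empty vector and 18.3 and 18.7 CPM in CDK7/9 KO, changed by -0.60 ± 0.15 (0.0326), and SNHG29 by -0.51 ± 0.11 (0.0175) and SNHG15 by -0.50 ± 0.10 (0.0164).

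NCL stood at 762 and 761 CPM in CDK9 KO, 747 and 812 in CDK7/9 KO, 851 and 911 in CDK7 KO, 837 and 848 in CDK1 KO and 813 in the parental library. All knockout and parental values lay below the 72 h empty-vector library, CDK7 KO by the least, and far below the 96 h library. NCL changed by -0.60 ± 0.14 (edgeR adjusted p = 0.03) in CDK9 KO and by -0.56 ± 0.14 (0.0301) in CDK7/9 KO, and by -0.30 and -0.27 without the 96 h empty-vector library. RABGGTB stood at 96.7 and 99.4 CPM in CDK7/9 KO and changed by -0.58 ± 0.13 (0.0235), or -0.31 without that library.

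SNHG10 was the host called higher in the knockouts, at 6.19 and 6.04 CPM in CDK9 KO and 6.39 and 7.84 CPM in CDK7/9 KO, against 3.78 and 3.61 CPM with the empty vector and 5 CPM in the parental library. It changed by 0.73 ± 0.19 (edgeR adjusted p = 0.046) in CDK9 KO and by 0.95 ± 0.19 (0.015) in CDK7/9 KO, on the TMM scale. In the same comparisons 10 of 13 mitochondrial mRNAs were higher, at medians of 0.92 and 0.86, and no fit scaled to them was run for the knockouts. In all, CDK9 KO had 1 host higher (4.34% of 16783 genes) and 3 lower (3.82%), SNHG15 at -0.39 ± 0.10 (0.0438) among them, and CDK7/9 KO had 1 higher (5.72%) and 7 lower (5.62%). No host kept its call in CDK9 KO when any 1 of the 8 knockout libraries was left out. None kept it in CDK7/9 KO when either CDK7/9 KO library was left out, and some lost it without a CDK7 KO library. More hosts were called in both without the 72 h empty-vector library. That fit holds 1 empty-vector library, and its share of all genes called is not given.

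EIF4A2 stood at 570 and 765 CPM with the empty vector, at 505 to 632 CPM in the 8 knockout libraries and at 593 CPM in the parental library. EIF4A1 stood at 8.61 and 4.87 CPM with the empty vector, at 7.57 to 9.78 CPM in the knockouts and at 5.37 CPM in the parental library. Neither was called in any knockout, and the knockout values of both lay on either side of the 72 h empty-vector library. SNHG12, lower in the inhibitor experiment, stood at 24.6 and 31.0 CPM in CDK7/9 KO against 25.9 and 35.0 CPM with the empty vector and was not called.

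CDK1 KO and CDK7 KO had 0 hosts called by edgeR, where 0.352% and 0.0238% of all genes were. At an unadjusted p of 0.05, CDK1 KO had 2 hosts higher and 8 lower, and DESeq2 called 0. CDK7 KO had 17 hosts lower and none higher at that p, SNHG1 at -0.86 ± 0.14 (edgeR adjusted p = 0.0839) among them, and DESeq2 called 7 lower. Of all 16783 genes, 3781 in CDK1 KO and 2887 in CDK7 KO were under that unadjusted p, in either direction. The number of hosts called lower in CDK1 KO and CDK7 KO changed with which empty-vector library was left out. Such a fit holds 1 empty-vector library, and its share of all genes called is not given. Its host calls are therefore not read as a result about the hosts. Between 96 and 72 h 0 hosts were called (0.0536% of all genes). Unadjusted, 4 noncoding hosts were higher at 96 h, and 1413 of 16783 genes differed in either direction.

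**Figure D4:**
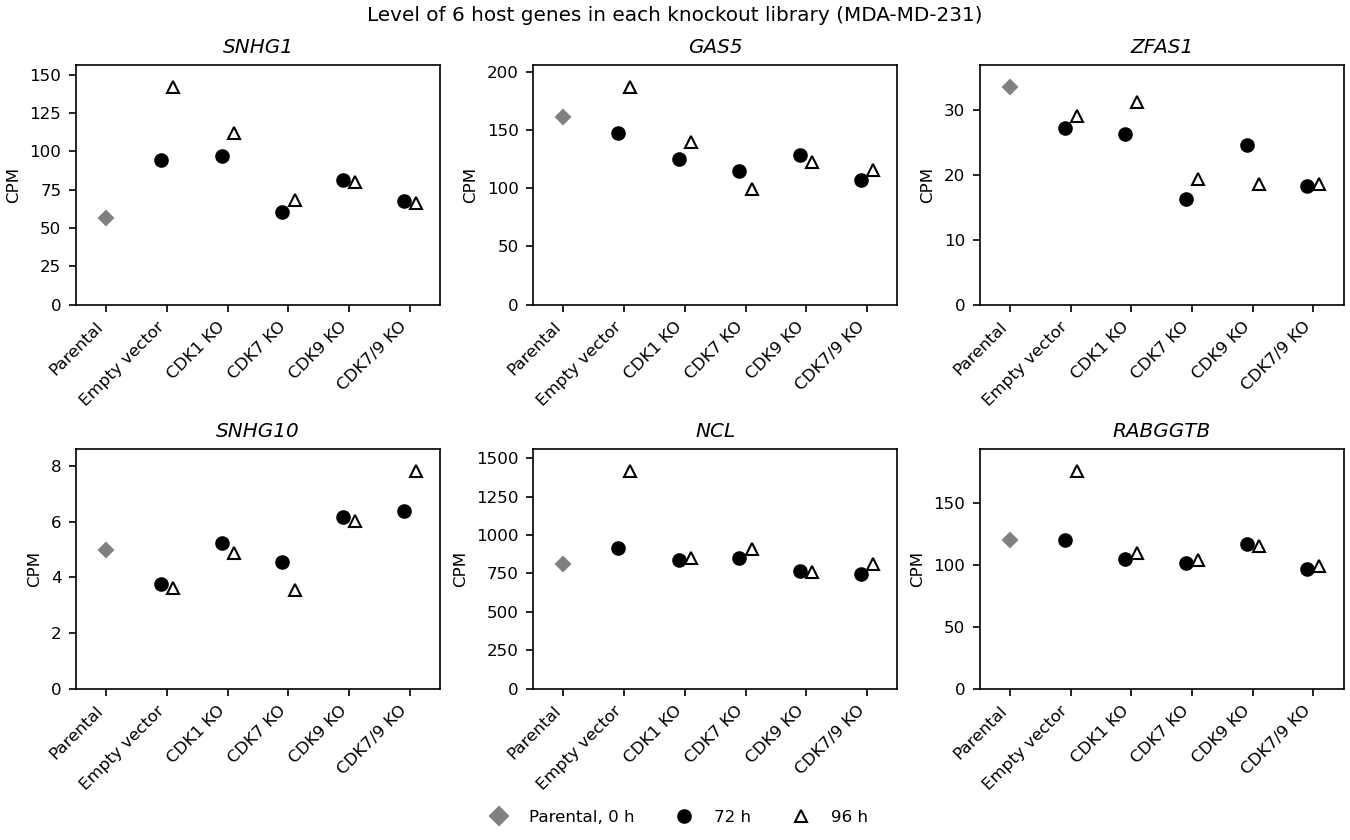
CPM on the TMM scale (vertical) of SNHG1, GAS5, ZFAS1, SNHG10, NCL and RABGGTB in the 11 knockout-experiment libraries by genotype (horizontal), with a grey diamond for the parental library at 0 h, circles for 72 h and triangles for 96 h. The empty-vector triangle is the highest point for SNHG1, GAS5, NCL and RABGGTB, and SNHG10 lies between 6.04 and 7.84 CPM in CDK9 KO and CDK7/9 KO against 3.61 and 3.78 CPM with the empty vector.

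Lists of genes that work with or beside the hosts were counted in the same way. Of all genes, SY200 raised 0.968% and lowered 1.02%, and V50 raised 10.4% and lowered 11.9%. SY200/V50 raised 24% and lowered 24.2%, and CDK7/9 KO raised 5.72% and lowered 5.62%. The 8 core proteins that package snoRNAs (FBL, NOP56, NOP58 and SNU13 for box C/D, DKC1, NOP10, NHP2 and GAR1 for box H/ACA) had 0 called under SY200, 2 higher under V50 and 5 higher under SY200/V50, with medians of 0.03, 0.28 and 0.47 on the TMM scale; NHP2 under SY200/V50 was at 0.82 ± 0.14. In CDK7/9 KO 4 of the 8 were lower, FBL at -0.50 and GAR1 at -0.62 among them. Of 11 tested assembly factors, 5 were lower and 3 higher under SY200/V50, with TGS1, which caps some snoRNAs, at -1.63, NUFIP1 at -1.45, SHQ1 at -0.96 and NAF1 at -0.94. Of 10 nonsense-mediated decay factors, 1 was lower under SY200 and 1 under V50, in both cases SMG9. Under SY200/V50, 2 were lower and 2 higher, near the shares of all genes.

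The 25 ribosomal protein genes that host snoRNAs moved together, with 0 called under SY200, 23 higher under V50 and 25 higher under SY200/V50 on the TMM scale, at medians of 0.12, 0.52 and 0.76. The mitochondrial mRNAs had medians of 0.42, 0.89 and 1.38. RPSA was at 1.0 and RPS20 at 0.88 under SY200/V50. In CDK7/9 KO 9 of these 25 were lower and 0 higher. The 20 other coding hosts were split, with 2 lower under SY200, 5 higher and 2 lower under V50, and 8 higher and 4 lower under SY200/V50. HSPA8, a heat shock chaperone, was among the lower, at -1.21, -1.19 and -1.68. Of all genes SY200/V50 raised 24% and lowered 24.2%, and the 4 lower are near that share. Of 11 other long noncoding RNAs, 1 was lower under SY200 and 2 were lower and 1 higher under each of V50 and SY200/V50. MIR17HG, the precursor of a microRNA cluster, was at -1.11 under V50 and -2.73 under SY200/V50. NORAD, a cytoplasmic RNA that binds Pumilio proteins, was lower under each treatment, at -0.51, -0.73 and -0.65. DANCR, itself known as a snoRNA host, was at 0.79 under SY200/V50.

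**Figure D5:**
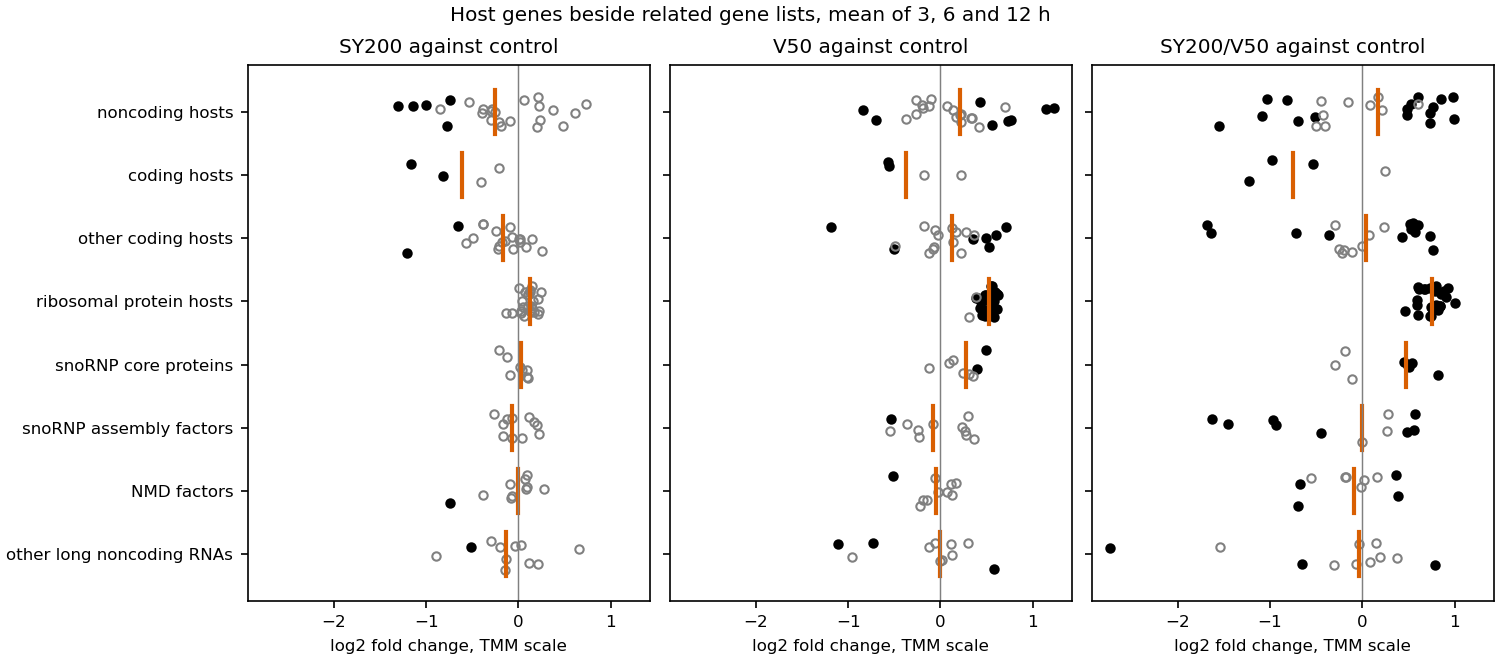
Log2 fold change against control on the TMM scale (horizontal) for the genes of 8 lists, with 1 point for each gene, filled where the adjusted p is under 0.05, and an orange bar at the list's median, for SY200, V50 and SY200/V50. The ribosomal protein hosts lie together at medians of 0.12, 0.52 and 0.76, while the noncoding hosts spread from -1.55 to 0.99 under SY200/V50; points above 0 shift down when libraries are scaled to mitochondrial mRNAs.

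Under SY200/V50, hosts called higher and hosts called lower occurred both with and without the start motif, and with either class of snoRNA. The motif split leaves out SNHG6 and SNHG9, both called higher, and SNHG15, which was not called. Of the 8 hosts with a C and 4 pyrimidines at the start, SY200/V50 raised 4 and lowered 3, at a median of 0.29, and of the 18 without, it raised 4 and lowered 6, at a median of -0.28. Both directions occur among the printed windows, since RABGGTB and SNHG12 fell while ZFAS1 and SNHG5 rose on the TMM scale. Among 16 ribosomal protein hosts with a start sequence, 11 had the motif. The 11 hosts of box C/D snoRNAs alone had 6 higher and 3 lower under SY200/V50 (median 0.49), and the 10 hosts of box H/ACA snoRNAs alone had 2 higher and 3 lower (median 0.13). Under SY200 the corresponding counts were 0 higher and 3 lower, and 0 higher and 2 lower. These splits are descriptions and were not tested.

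SNHG4, SNHG11, SNHG15, SNHG20, SNHG30, SNHG31, EPB41L4A-AS1 and NCL were not called in any of the 3 comparisons of a treatment with control. SNHG15, host of SNORA9, was nearest under SY200/V50, at -0.50 ± 0.21 (edgeR adjusted p = 0.0627). SNHG31 had counts of 34 or fewer in every library and was at 0.61 ± 0.30 (0.1) there. SNHG20 had an interaction of 1.54 ± 0.46 under SY200/V50 (edgeR adjusted p = 0.151, not called), from 3.79 and 3.03 CPM in the MDA-MD-231 controls to 1.08 CPM at 12 h of SY200/V50, and from 6.38 and 8.47 to 13.1 CPM in MDA-MD-468, and its exons overlap SEC14L1 on the same strand.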

How the data were processed

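RNA from 33 cell line libraries was sequenced as messenger 3′ ends (QuantSeq 3′ FWD, HiSeq2500), per the labels' protocols. STAR 2.7.10a, the build GRCh38 and FastQC are named in the submitters' processing notes; what counted the reads, on which annotation and strand, and whether molecular identifiers were used is not given in the sources used here. The authors deposited whole-number read counts per gene. PCR copies without molecular identifiers are not independent molecules, so counting error is a lower limit. The members and lists were chosen with earlier results of these data known.

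Genes passing filterByExpr (at least 10 counts in enough libraries, 15 in total) were fitted with edgeR 4.0.16 (limma 3.58.1, R 4.3.3; quasi-likelihood test, TMM scaling, Benjamini-Hochberg adjustment over all genes, threshold 0.05). The inhibitor fit held 22 libraries, the line as a block and 10 levels of condition (the controls and each treatment at each time), leaving 11 residual degrees of freedom; a treatment's effect is the mean of its 3 times. The knockout fit held 10 libraries with time as a block and 4 residual degrees of freedom, without the parental library. Standard errors are the log2 fold change over the root of F, and CPM were computed by edgeR on TMM-scaled library sizes, scaled separately in each experiment. Log2 changes by line used a pseudocount of 0.5 CPM.

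Hosted snoRNAs and start sequences came from RefSeq (GRCh38.p14), positions and overlaps from GENCODE 29. Every library value was printed for the 4 largest falls and the 4 largest rises over the 3 comparisons with control, the 4 coding hosts and GAS5; further hosts and some of the genes of smallest adjusted p in the other lists were named beside them. The scripts were tested on simulated counts. Alternatives were DESeq2 1.42.0, its size factors, no filter, DMSO alone, no block for line or time, mitochondrial scaling and leaving out each library.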

Additional observations from a re-analysis of the deposited data

How the results depend on the processing

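The alternatives were run for the 3 treatments against control, 12 h against 3 h, SY200/V50 against V50 and the knockouts, not for single times, the comparisons with SY200, the sum or the lines. Of the 61 host calls in those comparisons, 18 kept their call whichever single library was left out, and 4 under every alternative but mitochondrial scaling. Scaled to mitochondrial mRNAs, 20 values reversed: under V50 SNHG29 was -0.49, SNHG5 -0.13, SNHG6 -0.17 and SNHG9 -0.35; under SY200/V50 SNHG10 was -0.68, SNHG19 -0.67, SNHG21 -0.41, SNHG29 -0.67, SNHG32 -0.91, SNHG5 -0.55, SNHG6 -0.43, SNHG8 -0.94, SNHG9 -0.82 and ZFAS1 -0.93; from 3 to 12 h of SY200/V50 SNHG29 was -0.34, SNHG32 -0.23, SNHG6 -0.16, SNHG8 -0.36 and ZFAS1 -0.12; and against V50 SNHG29 was -0.18. Hosts lower on that scale numbered 19, 23 and 27 under SY200, V50 and SY200/V50, 15 from 3 to 12 h of SY200/V50 and 19 against V50, with 0 higher. In the same order, 5097, 13964, 15661, 10440 and 6599 of all 18911 genes were lower.

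With DMSO alone as control, 2 hosts were lower under SY200 and 2 under V50. With no block for the line, 0 were lower under SY200, 0 higher and 0 lower under V50, 1 higher and 3 lower under SY200/V50, and 0 in either direction over time or against V50. DESeq2 gave 0 higher in CDK9 KO, 7 lower in CDK7 KO, 4 lower over time under SY200, 2 higher over time under V50, 2 lower over time under SY200/V50, and 2 higher and 6 lower against V50. Without the filter on low counts, 6, 13 and 7 were lower in CDK1, CDK7 and CDK9 KO and 0 higher against V50. Without the block for time, 1 was lower in CDK9 KO. Shares of all genes called under the alternatives of this paragraph are not given, so whether the hosts changed more than other genes cannot be read from these counts.

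Leaving out 1 library at a time, hosts lower under SY200 numbered 2 to 7 and over time 0 to 1. Under V50 1 to 5 were lower, and 0 to 2 higher over time. Under SY200/V50 5 to 10 were higher and 8 to 13 lower, 0 to 8 higher and 0 to 2 lower over time, and 0 to 1 higher and 1 to 6 lower against V50. CDK1 KO had 0 to 4 higher and 0 to 12 lower, CDK7 KO 0 to 2 and 0 to 18, CDK9 KO 0 to 4 and 0 to 14, and CDK7/9 KO 0 to 4 and 0 to 16. SY200 had 2 lower without the parental or the 6 h SY200 library of MDA-MD-231 or the 3 h SY200 library of MDA-MD-468, 3 without the 3 h SY200 library of MDA-MD-231 or the MDA-MD-468 parental, and 4 without the 12 h SY200 library of MDA-MD-231. V50 had 2 lower without the MDA-MD-231 parental and 1 without its 6 h V50 library. SY200/V50 had 5 higher without the MDA-MD-468 DMSO library and 6 without its 12 h SY200/V50 library. The cause of these changes was not tested. Each line, treatment and time had 1 library, and depth limits the hosts of few counts, such as SNHG21, SNHG31 and EIF4A1.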
